A study of Mus musculus with 6 samples.

Results

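The HOX cluster genes are the 39 of 25899 gene symbols in the count table that consist of Hox, a cluster letter from a to d and a number. The rule reads the symbol alone. HoxA held 11 of them, HoxB 10, HoxC 9 and HoxD 9, and all 39 were found once in the GENCODE M21 annotation (GRCm38). RNA made within 15 min was captured from mouse embryonic stem cells and sequenced, in 3 libraries after 2 h of 4-hydroxytamoxifen (4OHT) and 3 untreated libraries.

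Both groups were E14tg2a cells (129SV background) with a stable cRAF-ErT2 cassette, a RAF kinase fusion that 4OHT switches on and that in turn activates ERK signalling. Each group had 1 library from each of 3 clones, a, b and c. Both groups were grown with serum, LIF and 2 µM CHIR99021, an inhibitor of the kinase GSK3, and were then moved for 24 h to serum, LIF and 250 nM PD173074, which blocks FGF receptors. The 4OHT group then received 250 nM 4OHT, the untreated group did not, and both were labelled with 5 mM ethynyl uridine. The labels list neither a solvent control nor 4OHT on cells without the cassette, so an action of 4OHT apart from the fusion cannot be told apart from an action through it.

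HOX genes encode transcription factors that bind DNA through a homeodomain and give cells their position along the head-to-tail axis. They lie in clusters whose gene order follows that axis, so that low paralogue numbers act in the head and neck and high numbers in the trunk, tail and limb ends. In embryonic stem cells the clusters are largely held silent by Polycomb complexes, and in the embryo WNT, FGF and retinoic acid signals open them in order from the low numbers upward.

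The part of each gene that encodes the DNA-contacting homeodomain, the homeobox, is shown for the 4 HoxC and HoxB genes with the most reads whose counts are not mixed with those of another gene, and for Hoxd13, the HoxD relative of Hoxc13. Each is 180 bases of coding sequence within 1 exon on the plus strand of GRCm38, read from the GENCODE M21 transcripts, and capitals mark the 18 bases for the residues WFQNRR of the recognition helix. Their positions are chr15:102927210-102927389 for Hoxc13, chr15:102938308-102938487 for Hoxc12, chr15:102956480-102956659 for Hoxc11, chr11:96274659-96274838 for Hoxb9 and chr2:74669930-74670109 for Hoxd13.
Hoxc13: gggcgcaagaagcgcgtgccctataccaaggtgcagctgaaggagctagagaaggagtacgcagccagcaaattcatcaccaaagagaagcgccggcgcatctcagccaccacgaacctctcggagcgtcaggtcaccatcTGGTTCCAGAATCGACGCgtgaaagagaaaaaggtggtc
Hoxc12: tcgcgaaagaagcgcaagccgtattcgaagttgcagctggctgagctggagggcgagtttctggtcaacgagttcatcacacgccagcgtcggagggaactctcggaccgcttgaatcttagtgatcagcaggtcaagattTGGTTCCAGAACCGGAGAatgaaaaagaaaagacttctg
Hoxc11: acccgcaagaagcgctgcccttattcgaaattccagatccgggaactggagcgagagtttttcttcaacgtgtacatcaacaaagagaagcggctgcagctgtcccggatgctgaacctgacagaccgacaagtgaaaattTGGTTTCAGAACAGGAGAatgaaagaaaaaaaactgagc
Hoxb9: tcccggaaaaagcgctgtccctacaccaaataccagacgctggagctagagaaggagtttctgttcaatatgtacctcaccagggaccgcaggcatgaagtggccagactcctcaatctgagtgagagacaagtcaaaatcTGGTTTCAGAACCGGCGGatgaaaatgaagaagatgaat
Hoxd13: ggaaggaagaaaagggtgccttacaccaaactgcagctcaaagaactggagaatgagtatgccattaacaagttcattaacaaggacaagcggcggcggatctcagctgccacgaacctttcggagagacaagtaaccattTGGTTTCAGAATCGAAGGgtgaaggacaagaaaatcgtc
Hoxc13 and Hoxd13, which share a paralogue number, matched at 135 of 180 bases (75.0%), against 112 of 180 (62.2%) for the neighbours Hoxc13 and Hoxc12. Hoxc13 and Hoxb9 matched at 103 of 180 (57.2%). The longest run of bases shared between whole transcripts was 10 to 17 bases over the 10 pairs among these 5 genes.

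Total counts per library ran between 7295334 and 9431819 in the 4OHT group and between 9745747 and 12168380 in the untreated group. A library without a count of a gene may still hold up to 3, which stood for 0.343 to 0.438 CPM (the count scaled to library size) in 4OHT libraries and 0.228 to 0.294 CPM in untreated libraries. The response spanned the table: of 13869 genes tested with edgeR's quasi-likelihood test at a Benjamini-Hochberg adjusted p below 0.05, 28.6% were lower and 28.5% were higher after 4OHT. These were 3968 lower and 3953 higher genes, against 5684 lower and 2407 higher genes when libraries were scaled by size alone. All 10 embryonic stem cell markers listed were present, at a summed level of 2100 to 2470 CPM in 4OHT libraries and 2650 to 2745 CPM in untreated libraries, and 5 were lower, 3 higher and 2 not called (6 lower and 2 higher by library size alone). Nanog, Esrrb and Tdgf1 were lower, at log2 fold changes of -1.66, -1.32 and -1.33. Pou5f1, the defining gene of these cells, had 225 ± 13.6 CPM after 4OHT and 175 ± 1.10 CPM untreated (SD, n = 3 each) and was higher at 0.36, a call lost by library size alone (edgeR, adjusted p = 0.0547).

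A listed 0 does not mean silence for 8 HOX genes. Of 2705 genes that lie wholly within the span of another gene in the table, 2698 (99.7%) had no count in any library, against 3661 of 22852 genes (16.0%) that do not. The share was 99.3% where the enclosing genes were all on the opposite strand and 99.8% where no exon was shared. That is the pattern given by counting reads over whole gene spans, without strand, and leaving out reads that fall in 2 genes. Hoxa3, Hoxa4, Hoxa5, Hoxa6, Hoxc6, Hoxc8, Hoxc9 and Hoxd4 are nested in this way and all 8 were at 0. Hoxd3 kept 505 bases, 1.38% of its span, free of other genes, and was also at 0. None of these could be measured here.

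Among the other HOX genes, transcription was low, and most counts of untreated cells fell on Hoxc13, Hoxc12 and Hoxb9. In all, 25 HOX genes had a count in some library and 14 exceeded 3 counts in at least 1 library. HOX counts came to 165 over the 4OHT libraries and 829 over the untreated libraries. Of the untreated HOX counts, 596 (71.9%) came from Hoxc13, Hoxc12 and Hoxb9, with 300, 153 and 143. Hoxc13 and Hoxc12 lie at the 5′ end of HoxC, of whose middle only part could be counted. Hoxb1, Hoxb5, Hoxb6, Hoxd12 and Hoxa11 had spans free of other genes and no count in any of the 6 libraries. In a single library this allows each of them up to the CPM given above for a count of 3, and less over all 6 together.

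With more than 3 counts required in every library of a group, 2 HOX genes were detected in 4OHT cells, Hoxb9 and Hoxd13. By the same measure 8 were detected in untreated cells, among them Hoxc13, Hoxc12, Hoxc11, Hoxc5, Hoxc4, Hoxb9 and Hoxa2. By cluster the detected genes numbered 1 in 4OHT and 1 in untreated cells for HoxB, 0 and 5 for HoxC, and 1 and 0 for HoxD. Hoxb9 was detected in both groups. Untreated libraries were deeper, so a gene near the limit could pass in them at a level that would miss it after 4OHT.

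**Figure D1:**
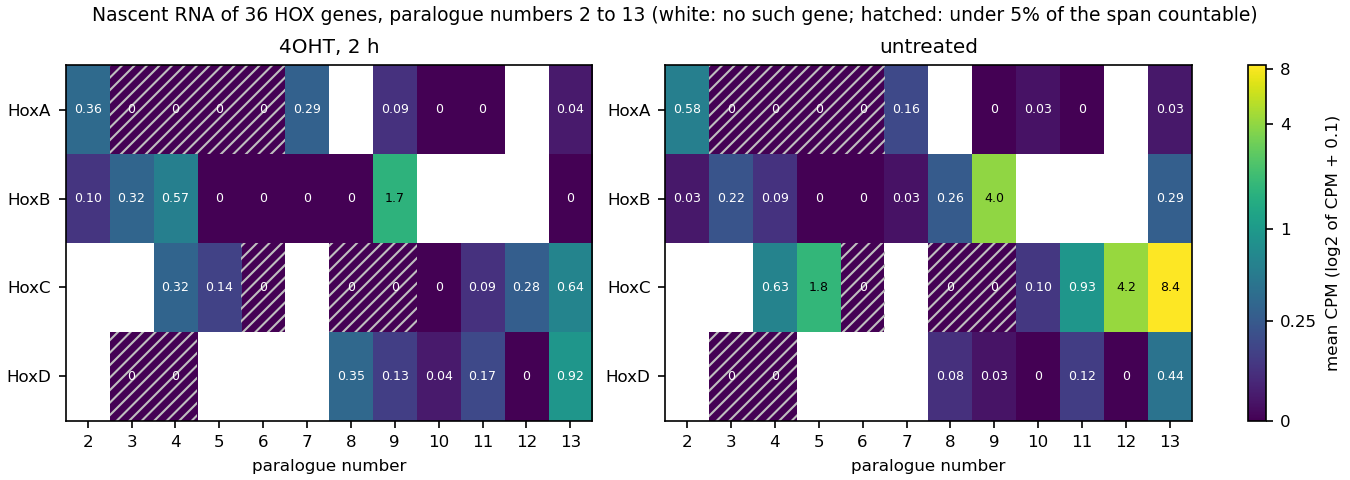
Mean CPM of HOX genes of paralogue numbers 2 to 13, by cluster (vertical axis) and number (horizontal axis), in 3 libraries after 4OHT (left) and 3 untreated libraries (right); colour follows log2 of CPM + 0.1, white cells have no gene and hatched cells have under 5% of their span free of other genes. Hoxc13 and Hoxc12 are at 0.64 and 0.28 CPM after 4OHT, against 8.4 and 4.2 CPM untreated, the highest values of the untreated panel.

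HoxC carried the largest change of the 4 clusters. Its summed level was 1.37, 1.11 and 1.90 CPM in 4OHT clones a to c, against 16.8, 16.2 and 15.0 CPM in untreated clones a to c. The means were 1.46 ± 0.401 CPM after 4OHT and 16.0 ± 0.905 CPM untreated (SD, n = 3 each), 10.9-fold lower after 4OHT (log2 ratio -3.45). Every 4OHT library lay far below every untreated library. In bulk libraries fewer cells with a transcript and less transcript per cell cannot be told apart.

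Hoxc13 (ENSMUSG00000001655.6, chr15:102921103-102928814, plus strand), a gene of hair and nail formation, had 7, 2 and 6 counts in 4OHT clones a to c and 110, 108 and 82 counts in untreated clones a to c. That is 0.800, 0.247 and 0.877 CPM after 4OHT, against 8.82, 8.20 and 8.04 CPM untreated. The 4OHT clones were all under 1 CPM, and the untreated clones lay close together far above them. The log2 fold change was -3.69 ± 0.29 (SE), with an adjusted p of 3.27e-06 in edgeR's quasi-likelihood test with Benjamini-Hochberg adjustment. It was the 8th lowest log2 fold change of the 13869 genes tested. Hoxc13 reached the count minimum for the test only through the untreated libraries, which fixes a low value beforehand. Neither its call nor its rank is therefore read as support. On summed counts scaled for depth, the 4OHT level was 0.0757 of the untreated level, with a 95% exact counting interval of 0.0418 to 0.127, which covers counting error only.

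Hoxc12 (chr15:102936757-102938609, plus strand), the next gene in the cluster and a patterning gene of the hind end of the body, had 3, 4 and 0 counts in 4OHT clones a to c, against 60, 59 and 34 counts in untreated clones a to c. Its level was 0.343, 0.495 and 0 CPM after 4OHT, against 4.81, 4.48 and 3.33 CPM untreated. Every 4OHT library was at or near the limit of a count of 3, and no untreated library came near it. The log2 fold change was -3.79 ± 0.45 (SE; edgeR's quasi-likelihood test, Benjamini-Hochberg adjusted p = 5.88e-05), the 6th lowest of all genes tested. Hoxc12 too reached the count minimum only through the untreated libraries, so neither its call nor its rank is read as support. The log2 fold change of Hoxc12 was -4.38 without 4OHT clone b, -3.31 without 4OHT clone c and -3.47 without clone c in both groups. Per kilobase of gene span Hoxc12 and Hoxc13 had 0.151 and 0.0832 CPM per kb after 4OHT, against 2.27 and 1.08 CPM per kb untreated. The 4OHT values rest on 7 and 15 counts, and in clone c Hoxc12 had no count where Hoxc13 had 6, so their order after 4OHT is not read.

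Hoxc11 (chr15:102954427-102957708, plus strand), whose paralogue group patterns the hind limb and kidney, had 1, 0 and 1 counts in 4OHT clones a to c, against 11 in each of the 3 untreated clones. The groups did not overlap, and the ratio of summed, depth-scaled counts was 0.0918 (95% exact counting interval 0.0107 to 0.359). It missed the count minimum for the test across genes. With no minimum, its log2 fold change was -3.27 ± 0.76 (SE; edgeR's quasi-likelihood test, Benjamini-Hochberg adjusted p = 0.00147).

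Hoxc10 could be counted over 647 bases, 12.7% of its span, and had 0, 0 and 0 counts in 4OHT clones against 2, 2 and 0 in untreated clones. Both groups were at or under the limit of 3 counts in each library, so no fold change is given.

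The symbol Hoxc5 (chr15:102967443-103017429, plus strand) covers 49987 bases that also enclose Hoxc9, Hoxc8 and Hoxc6 and overlap Hoxc10. Only the 19745 bases between those genes (39.5%) could be counted, so its reads may come from anywhere in the middle of HoxC. It had 0, 1 and 2 counts in 4OHT clones a to c, against 19, 27 and 18 counts in untreated clones a to c. The groups were far apart, with a log2 fold change of -3.69 ± 0.57 (SE; edgeR's quasi-likelihood test, Benjamini-Hochberg adjusted p = 0.000321), the 9th lowest of all genes tested. Hoxc5 also reached the count minimum only through the untreated libraries, so neither its call nor its rank is read as support. With so few counts after 4OHT the size of the change rested on single libraries: it was -3.07 without 4OHT clone a, -4.65 without 4OHT clone c and -4.69 without clone c in both groups.

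Hoxc4 (chr15:103018934-103036852, plus strand), the 3′ gene of the cluster and a neck-region gene, had 1, 2 and 4 counts in 4OHT clones a to c, against 7, 7 and 8 in untreated clones a to c. In CPM the groups overlapped, at 0.114, 0.247 and 0.585 after 4OHT against 0.561, 0.531 and 0.784 untreated. The ratio was 0.482, with a 95% exact counting interval of 0.174 to 1.17, so a lower level was not shown at this depth. Within HoxC the ratio of 4OHT to untreated level was thus between 0.0693 and 0.0918 for Hoxc13, Hoxc12, Hoxc11 and Hoxc5. The interval of Hoxc4 lies above those of Hoxc13 and Hoxc12 and overlaps those of Hoxc11 and Hoxc5, but all cover counting error alone.

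**Figure D2:**
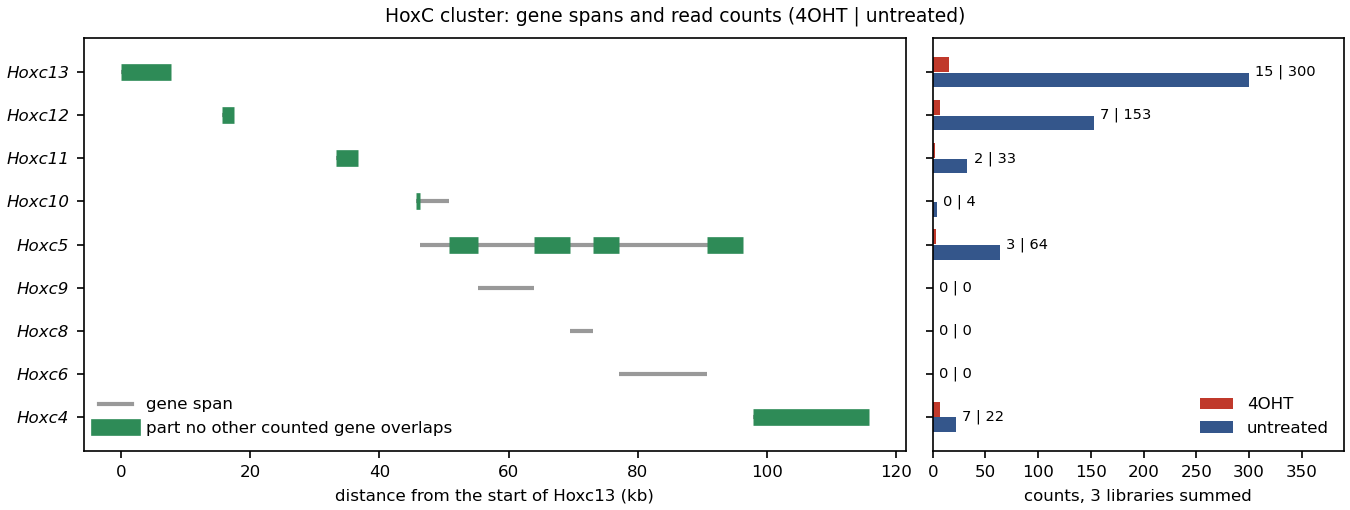
Left: gene spans of the HoxC cluster (grey) with the parts that no other counted gene overlaps (green), by distance in kb from the start of Hoxc13. Right: counts summed over 3 libraries, 4OHT above untreated, with 15 against 300 for Hoxc13, 7 against 153 for Hoxc12, 2 against 33 for Hoxc11 and 3 against 64 for Hoxc5; Hoxc9, Hoxc8 and Hoxc6 have no green part and no count.

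In HoxB, Hoxb9 (ENSMUSG00000020875.9, chr11:96271457-96276595, plus strand), a gene of rib and thoracic patterning, was the one member tested. It had 16, 14 and 10 counts in 4OHT clones a to c, against 56, 50 and 37 counts in untreated clones a to c. The levels were 1.83, 1.73 and 1.46 CPM after 4OHT, against 4.49, 3.80 and 3.63 CPM untreated, with no overlap. The log2 fold change was -1.23 ± 0.23 (SE; edgeR's quasi-likelihood test, Benjamini-Hochberg adjusted p = 0.00104), which ranked 877th lowest of all genes tested. The ratio of 4OHT to untreated level was 0.424 (95% exact counting interval 0.291 to 0.605), above the intervals of Hoxc13, Hoxc12 and Hoxc5 and overlapping that of Hoxc11. These intervals cover counting error alone. Hoxb9 was the most abundant HOX gene after 4OHT, at 1.67 ± 0.190 CPM (SD, n = 3), against 3.97 ± 0.457 CPM untreated (SD, n = 3).

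No other HoxB gene reached the count minimum for the test. Hoxb13, the last gene of the cluster and known from tail and prostate, had no count in any 4OHT library, against 3, 3 and 4 counts in untreated clones a to c. Hoxb8, a trunk gene, also had no count after 4OHT, against 5, 1 and 3 counts in untreated clones a to c. Their untreated means of 0.287 and 0.257 CPM lie under what 3 counts stand for in a 4OHT library, so no fold change is given for either.

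Hoxb4 (chr11:96318267-96321638, plus strand), known for expanding blood stem cells, lay the other way. It had 2, 5 and 6 counts in 4OHT clones a to c, against 1, 0 and 2 counts in untreated clones a to c. Its level was 0.228, 0.619 and 0.877 CPM after 4OHT, against 0.0802, 0 and 0.196 CPM untreated. The lowest 4OHT library stood just above the highest untreated one, and the ratio was 6.56 with a 95% exact counting interval of 1.80 to 35.9. Hoxb3 had the same counts in both groups, 1, 1 and 5 in clones a to c. Scaled for depth its ratio was 1.51, with a 95% exact counting interval of 0.453 to 5.06 that takes in no change. Hoxb2 had 2 counts in 4OHT libraries in all and 1 in untreated libraries, and Hoxb7 had 0 and 1.

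The HoxB sum was 2.67 ± 0.619 CPM after 4OHT and 4.88 ± 0.552 CPM untreated (SD, n = 3 each; log2 ratio -0.87), with no overlap between groups. Without Hoxb9 the log2 ratio was 0.13 and the groups overlapped, at 0.343, 0.742 and 1.90 CPM in 4OHT clones a to c against 0.802, 0.455 and 1.47 CPM in untreated clones a to c.

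**Figure D3:**
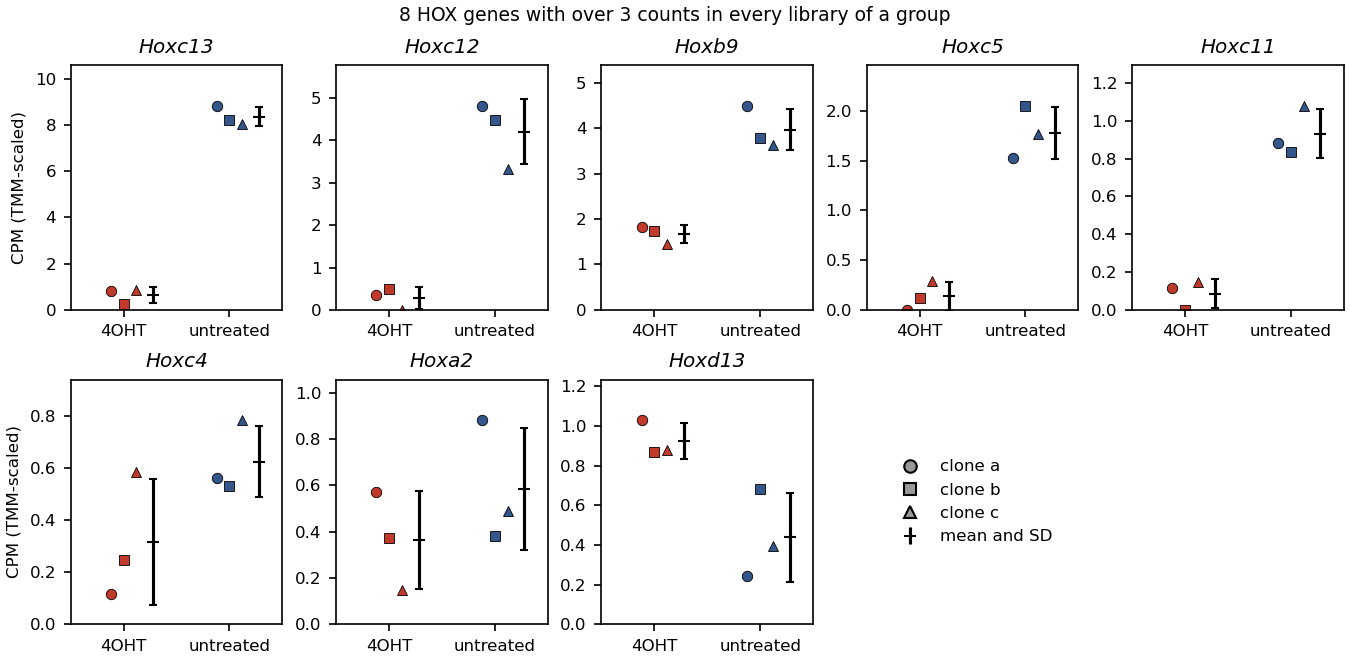
CPM of 8 HOX genes with more than 3 counts in every library of a group, for each 4OHT library (left in each panel) and each untreated library (right); marker shape gives the clone and the bar the mean and SD of 3. The groups are apart for Hoxc13, Hoxc12, Hoxb9, Hoxc5 and Hoxc11, with 4OHT lower, and for Hoxd13, with 4OHT higher, and overlap for Hoxc4 and Hoxa2. Picking genes by their counts in either group favours groups that lie apart. The share of all genes whose groups lie apart was not determined.

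HoxD was the one cluster whose sum was higher after 4OHT, at a low level. Its members together had 1.83, 1.48 and 1.75 CPM in 4OHT clones a to c, against 0.481, 0.759 and 0.784 CPM in untreated clones a to c. The means were 1.69 ± 0.180 CPM after 4OHT and 0.675 ± 0.168 CPM untreated (SD, n = 3 each), 2.50-fold higher after 4OHT. The counts behind them were 40 after 4OHT and 24 untreated, so the difference lies in few reads, and the sum of a cluster was given no test.

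Hoxd13 (chr2:74668310-74671599, plus strand), a gene of digit and genital formation, had 9, 7 and 6 counts in 4OHT clones a to c, against 3, 9 and 4 counts in untreated clones a to c. Its level was 1.03, 0.866 and 0.877 CPM after 4OHT, against 0.240, 0.683 and 0.392 CPM untreated. The groups did not overlap after scaling for depth, although untreated clone b came close. The ratio was 2.08, with a 95% exact counting interval of 1.04 to 4.24. With no count minimum its log2 fold change of 1.04 ± 0.52 (SE) did not pass the test (edgeR's quasi-likelihood test, Benjamini-Hochberg adjusted p = 0.125).

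Hoxd8, a trunk gene, had 2, 3 and 3 counts in 4OHT clones a to c against 1 in each untreated clone. Its ratio was 4.04, with a 95% exact counting interval of 0.969 to 23.6 that takes in no change. Hoxd11 had 2, 1 and 1 counts in 4OHT clones a to c against 1, 0 and 3 in untreated clones a to c. Hoxd9, Hoxd10 and Hoxd1 had 3, 1 and 2 counts in all after 4OHT, against 1, 0 and 0 untreated. Without Hoxd13 the cluster sum still did not overlap between groups, at 0.765 ± 0.133 CPM after 4OHT and 0.236 ± 0.158 CPM untreated (SD, n = 3 each).

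In HoxA the groups overlapped, with a summed level of 1.19 ± 0.495 CPM after 4OHT and 1.57 ± 0.462 CPM untreated (SD, n = 3 each). The log2 ratio was -0.41, and 0.087 without clone c.

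Hoxa2 (chr6:52162417-52164831, minus strand), which patterns the hindbrain and the second pharyngeal arch, had 5, 3 and 1 counts in 4OHT clones a to c against 11, 5 and 5 in untreated clones a to c. Its groups overlapped in CPM, and 942 bases (39.0% of its span) were free of Gm28308, a gene that had 3, 1 and 5 counts in 4OHT clones a to c against 3, 3 and 4 in untreated clones a to c. Hoxa7, a trunk gene, had 3, 2 and 2 counts in 4OHT clones a to c against 4, 1 and 1 in untreated clones a to c, with overlap. Hoxa9, Hoxa10 and Hoxa13 had 2, 0 and 1 counts in all after 4OHT, against 0, 1 and 1 untreated.

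By paralogue number from 2 to 13, the sums that did not overlap were those of numbers 5, 9, 11, 12 and 13, all lower after 4OHT. How often groups fail to overlap over all genes was not determined, so how many sums did so is not read. Number 13 had 1.60 ± 0.434 CPM after 4OHT and 9.11 ± 0.190 CPM untreated (SD, n = 3 each), a log2 ratio of -2.51 that joins the low Hoxc13 with the higher Hoxd13. Number 12 had 0.279 ± 0.253 CPM after 4OHT and 4.21 ± 0.775 CPM untreated, a log2 ratio of -3.91 that came from Hoxc12 alone. For numbers 11, 9 and 5 the log2 ratios were -2.06, -1.08 and -3.68, and Hoxc11, Hoxb9 and Hoxc5 held most or all of the counts. Reads counted as Hoxc5 may come from anywhere in the middle of HoxC, so the number 5 value cannot be assigned to that number. For numbers 2, 3, 4, 7, 8 and 10 the groups overlapped, and number 6 had no count, since Hoxa6 and Hoxc6 are nested and Hoxb6 was at 0. Within a number, ratios differed between clusters for Hoxc4 and Hoxb4 (0.482 and 6.56) and for Hoxc13 and Hoxd13 (0.0757 and 2.08). The intervals do not meet in either pair, but they cover counting error alone and no test compared members. The interval of Hoxc4 takes in no change, and Hoxb4 and Hoxd13 rest on few counts.

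**Figure D4:**
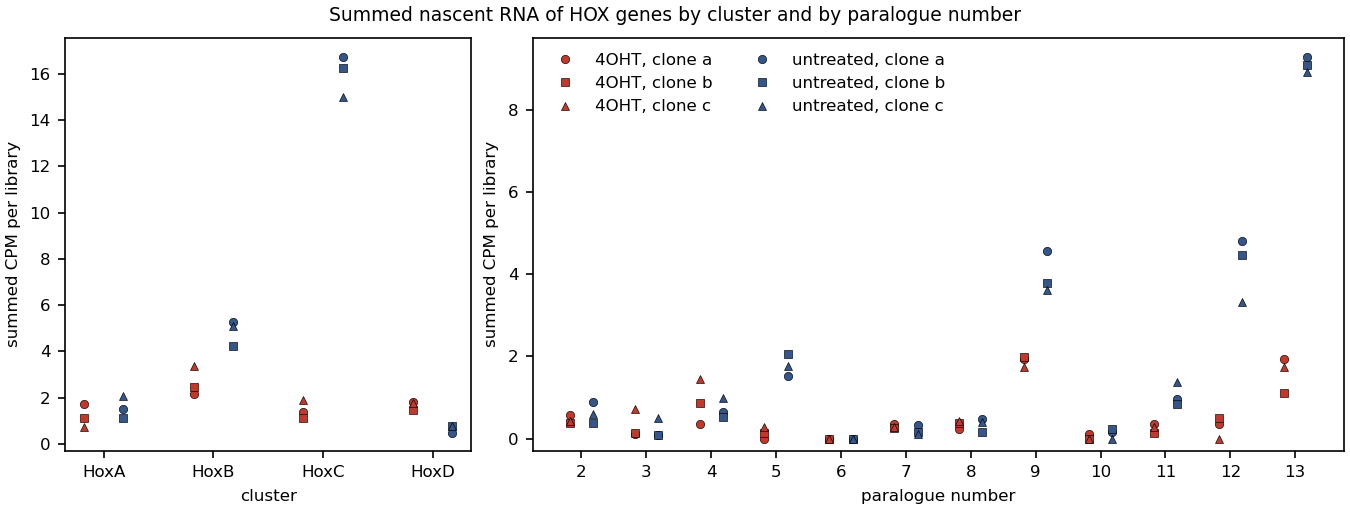
Summed CPM per library of the HOX genes of each cluster (left panel) and each paralogue number from 2 to 13 (right panel), 4OHT in red left of untreated in blue, with marker shape for the clone. HoxC lies at 1.11 to 1.90 CPM after 4OHT, against 15.0 to 16.8 CPM untreated, and number 13 lies at 1.11 to 1.94 CPM after 4OHT, against 8.92 to 9.30 CPM untreated, the highest sum of any number.

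Over all 39 genes the summed level was 7.08, 6.19 and 7.75 CPM in 4OHT clones a to c, against 24.0, 22.4 and 22.9 CPM in untreated clones a to c. In the test across genes, 4 HOX genes passed the count minimum, Hoxc13, Hoxc12, Hoxc5 and Hoxb9, and all 4 were called lower. Hoxc13, Hoxc12 and Hoxc5 reached that minimum only through the untreated libraries and a gene that passes through 1 group alone had to differ, so this count is not read against the 28.6% of genes called lower.

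With no count minimum, 19402 genes were tested, 25 of them HOX genes. Then 6 of the 25 were called lower, beside 21.1% of all genes, a share near the background: Hoxc13, Hoxc12, Hoxc11, Hoxc5, Hoxb9 and Hoxb13. Hoxb13 has no interpretable fitted size, being at 0 in every 4OHT library, and its Benjamini-Hochberg adjusted p in edgeR's quasi-likelihood test was 0.0325, against 0.0512 with clone as a block, where it was no longer called. In the other direction 1 of the 25 was called higher, Hoxb4, at 2.54 ± 0.92 (log2, SE; edgeR's quasi-likelihood test, Benjamini-Hochberg adjusted p = 0.0302), beside 20.5% of all genes. Hoxb4 had 13 counts in 4OHT libraries and 3 in untreated libraries.

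**Figure D5:**
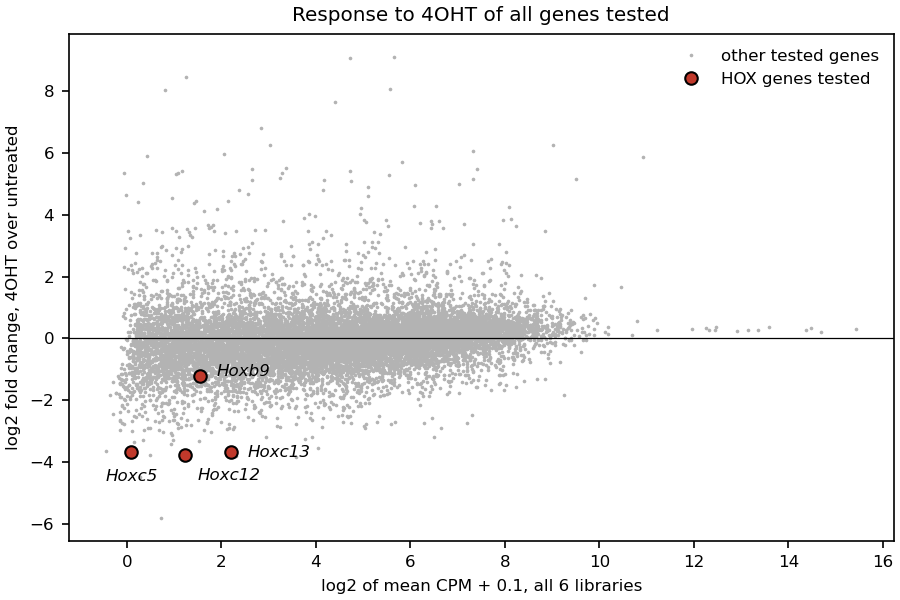
Log2 fold change of 4OHT over untreated (vertical axis) against log2 of mean CPM + 0.1 over 6 libraries (horizontal axis) for the 13869 genes tested (grey) and the 4 HOX genes among them (red). Hoxc13, Hoxc12 and Hoxc5 lie at -3.69, -3.79 and -3.69, near the lower edge of the cloud, and Hoxb9 at -1.23 lies within it.

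The 4 tested genes were lower after 4OHT in each of the 3 clones. Hoxc13 differed between 4OHT and untreated by -3.17, -4.23 and -2.93 on the log2 CPM scale (prior count 2) in clones a to c, and Hoxb9 by -1.21, -1.05 and -1.20. A joint edgeR quasi-likelihood test of the clone terms called 0 of the 4 tested HOX genes, with 0 at an unadjusted p below 0.05, against 12.6% of all genes. DESeq2 and limma-voom also called 0. The clones are not thereby shown to be alike, since the few counts of Hoxc12 and Hoxc5 leave room for differences.

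The noncoding RNAs of the clusters and the genes around them were listed beside the HOX genes. Of 21 HOX cluster noncoding RNAs listed, 1 had a symbol in the table, Haglr (chr2:74748422-74762896, minus strand), which lies between Hoxd3 and Hoxd1 and overlaps the end of Hoxd3. It had 8, 8 and 7 counts in 4OHT clones a to c, against 0, 0 and 3 counts in untreated clones a to c. Every 4OHT library was above every untreated one, in the same direction as the HoxD sum. It missed the count minimum, and with none its log2 fold change was 3.34 ± 0.81 (SE; edgeR's quasi-likelihood test, Benjamini-Hochberg adjusted p = 0.00199). As strand was apparently not used in counting, reads from the opposite strand there would be counted as Haglr.

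None of the tested genes flanking HoxC had a log2 fold change below -0.29 with TMM scaling. Calcoco1, an autophagy receptor gene beyond Hoxc13, had 15.4 ± 1.79 CPM after 4OHT and 18.8 ± 2.99 CPM untreated (SD, n = 3 each) and did not pass (log2 fold change -0.29; edgeR, adjusted p = 0.113), but did with clone as a block (adjusted p = 0.0229) and by library size alone (adjusted p = 0.0164). On the Hoxc4 side, Smug1, a DNA repair gene, had a log2 fold change of -0.27 (edgeR, adjusted p = 0.107) and Cbx5, which encodes a heterochromatin protein, had -0.032 (edgeR, adjusted p = 0.696), and both were called lower by library size alone (adjusted p = 0.0113 and 0.0101). Farther out, Hnrnpa1, Nfe2 and Gtsf1 were called higher by edgeR, at 0.40, 1.01 and 0.79, and Copz1 at 0.14 was not called except with clone as a block (adjusted p = 0.0213).

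Beside HoxB, Ttll6, a tubulin-modifying enzyme gene beyond Hoxb13, had 5.11 ± 1.54 CPM after 4OHT and 15.9 ± 2.81 CPM untreated (SD, n = 3 each), a log2 fold change of -1.65 ± 0.21 (SE; edgeR's quasi-likelihood test, Benjamini-Hochberg adjusted p = 0.000101). Calcoco2 was lower at -0.69, Snx11 higher at 0.70, and Skap1 and Cbx1 were not called. Atp5g1 was called higher only with clone as a block (adjusted p = 0.0213).

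Beside HoxA, Evx1 (chr6:52313498-52318378, plus strand), a homeobox gene of the primitive streak next to Hoxa13, had 13, 17 and 9 counts in 4OHT clones a to c, against 0, 8 and 3 counts in untreated clones a to c. It was higher by 2.38 ± 0.60 (log2, SE; edgeR's quasi-likelihood test, Benjamini-Hochberg adjusted p = 0.00662), while Hoxa13 itself had 1 count in each group. Evx1 reached the count minimum for the test only through the 4OHT libraries, so its call is not read as support. At the other end Snx10 and Skap2 were lower at -1.21 and -0.67, and beyond Evx1 Tax1bp1 and Jazf1 were higher at 0.43 and 1.26. Hibadh was called lower only with clone as a block (adjusted p = 0.00874) or by library size alone (adjusted p = 0.00927). Beside HoxD, Evx2, the counterpart of Evx1, had no count after 4OHT and 1 in untreated libraries, Lnpk was higher at 0.64 and Mtx2 was not called.

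Over 21 tested flanking genes 4 were lower, 8 were higher and 9 were not called in edgeR, with a median log2 fold change of 0.053, against -0.00054 for all genes tested. Evx1, among the higher, passed the count minimum through the 4OHT libraries alone. Of all genes tested, 28.6% were lower and 28.5% were higher. By library size alone, which moves the median of all genes by -0.20, 8 were lower and 8 higher and the median was -0.15. With clone as a block 6 were lower and 10 higher.

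Genes that act with or upon HOX genes were counted in the same fit, beside 28.6% lower and 28.5% higher of all genes tested. Of 9 TALE cofactors, which bind DNA together with HOX proteins, 2 were lower (Pknox2 at -2.21 among them), 4 were higher (Meis2 at 1.12 and Pknox1 at 0.77 among them) and 3 were not called, with a median of 0.27. With clone as a block 3 were lower, 5 were higher and 1 was not called. Of 15 tested retinoic acid pathway genes 5 were lower, 3 were higher and 7 were not called, with a median of -0.19 (7 lower and 3 higher by library size alone). The receptor gene Rara was lower at -0.41, the receptor gene Rarg higher at 0.76 and the synthesis enzyme gene Aldh1a3 higher at 3.34. Aldh1a3 reached the count minimum only through the 4OHT libraries, so its call is not read as support. Of the retinoic acid genes called lower only Rara is named here. Of 29 tested Polycomb and Trithorax genes 8 were lower, 10 were higher and 11 were not called, with a median of 0.0036. By library size alone 12 were lower and 8 higher, with a median of -0.20, and with clone as a block 10 were lower and 13 higher. Among them the Polycomb recruiter gene Kdm2b was lower at -0.90 and the Polycomb gene Phf19 higher at 1.02, so Polycomb genes went both ways. The HOX activator gene Kmt2a and the demethylase gene Kdm6b were higher at 0.86 and 1.34.

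CDX factors, which switch on trunk HOX genes in the embryo, were low in both groups and none reached the count minimum. Cdx2 had 15, 6 and 11 counts in 4OHT clones a to c, against 8, 5 and 7 counts in untreated clones a to c, and was called higher at 1.25 when no count minimum was set (edgeR, adjusted p = 0.0364). Cdx1 averaged 0.425 ± 0.0770 CPM after 4OHT and 0.247 ± 0.0541 CPM untreated, and Cdx4 0.244 ± 0.329 CPM after 4OHT and 0.177 ± 0.110 CPM untreated (SD, n = 3 each). In the same list of 13 homeobox genes 3 were tested: Gbx1 was higher at 0.88, En2 was not called, and Meox2 at 0.72 was called (edgeR, adjusted p = 0.0498) but not with DESeq2 size factors or by library size alone (adjusted p = 0.144 by library size).

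Markers of other cells were counted in the same fit, in which 28.6% of all genes tested were lower and 28.5% were higher. Of 14 fibroblast and feeder markers, Lum and Postn were at 0, and the list summed to 31.3 to 39.6 CPM in 4OHT libraries against 12.1 to 17.5 CPM in untreated libraries. Twist1, with 18.1 ± 2.02 CPM after 4OHT and 0.499 ± 0.321 CPM untreated (SD, n = 3 each), accounted for most of that difference. Of 6 tested, 1 was lower (Pdgfrb), 2 were higher (Col1a1 and Twist1) and 3 were not called. Pdgfrb reached the count minimum only through the untreated libraries, and Col1a1 and Twist1 only through the 4OHT libraries. These counts are therefore not read against the shares of all genes. Of 12 caudal epiblast and presomitic markers, Msgn1, Mesp1 and the nested Nkx1-2 were at 0, and the list summed to 68.2 to 90.8 CPM after 4OHT against 36.4 to 47.8 CPM untreated, mostly through Wnt5b. Of 5 tested, 2 were lower and 3 were higher, 1 of which (Tbx6) was not called by library size alone. Fgf8, also among the higher, reached the count minimum only through the 4OHT libraries. T, the defining gene of the streak, had 4 counts in all after 4OHT and 5 untreated. The part of such cells in the HOX values was not tested.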

How the data were processed

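The members and gene lists were chosen with earlier results of these data known. Per the labels' protocols, ethynyl-uridine RNA was pulled down with a click-chemistry kit before library preparation. The authors deposited a raw count of reads for each gene symbol and each library, unnormalized. STAR, featureCounts and the mm10 build appear in the submitters' processing notes. Versions, annotation release and counting settings are not given in the sources consulted here, and the counting pattern described above was read from the values. Spans come from GENCODE M21 on GRCm38, which is mm10: 25557 symbols matched 1 gene, 38 matched several and 304 matched none. All 6 columns were tied to samples by clone letter and time.

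Testing used edgeR 4.0.16 (R 4.3.3): filterByExpr (minimum count 10, minimum total 15) kept 13869 genes, TMM scaled the libraries, and glmQLFit with glmQLFTest compared 3 with 3 libraries, leaving clone out. Benjamini-Hochberg adjustment ran over all genes tested, and genes were called below 0.05. The SE is the log2 fold change over the square root of F. CPM are counts over TMM-scaled library totals, a scaling that is blind to a change in total transcription. TMM factors were 0.929 to 0.939 in 4OHT libraries and 1.05 to 1.08 in untreated libraries. Cluster and paralogue sums carry no test. Scripts were tested on simulated data.

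The labels name the same clones in both groups, so clone pairs the libraries, and libraries of 1 clone deviated together from their group means (r = 0.282 for clone a, 0.165 for b and 0.357 for c, across genes). Nothing says that clones were cultured apart, so a p-value speaks only of the spread among these 6 libraries. No library looked like a copy of another, with a chi-square per gene of 2.29 to 11.3 between those of 1 group. Clones a and b were nearest, at 2.29 after 4OHT and 2.44 untreated, while pairs with clone c were at 5.38 to 11.3. Intervals and limits from counts cover counting error alone, because the reads have no molecular identifiers. The HOX genes are accounted for by count, but values of some members and listed genes are not reported here. Of each other list the 4 tested genes with the smallest adjusted p could be named, plus Evx1, Evx2, Cdx1, Cdx2, Cdx4, T, Pou5f1 and every tested flanking gene, and listed genes at 0 are named besides. Alternatives were DESeq2 size factors, library size alone, no filter, at least 1 CPM in 3 libraries, DESeq2 1.42.0, limma-voom (limma 3.58.1), clone as a block (with the filter and, added after seeing the data, without it), an adjusted p of 0.01, other detection rules, and each library, each clone and the highest member of each cluster left out.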

Additional observations from a re-analysis of the deposited data

How the results depend on the processing

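Hoxc13, Hoxc12, Hoxc5 and Hoxb9 stayed lower and called in all 72 alternative results, each of 1 gene under 1 setting. With clone as a replicate block, the same 4 were called lower by edgeR and by DESeq2. Hoxc13, Hoxc12 and Hoxc5 reached the count minimum only through the untreated libraries, so their repeated calls with it are not read as support. With no filter on low counts, 1 HOX gene was called higher, against 0 with it, because low genes entered the test. In a fit chosen after seeing the data, with no filter and clone as a replicate block together, 5 HOX genes were called lower, as Hoxb13 was lost, and 1 higher, and no other HOX call differed from the unblocked fit with no filter. By library size alone 2407 of all genes were called higher, against 3953 with TMM, since that scaling moves the median log2 fold change of all genes to -0.20. The log2 ratio of the HoxA sum (-0.41) ranged over -0.79 to 0.087 as each clone was left out, with the sign turned by leaving out clone c, and that of the HoxB sum (-0.87) became 0.13 without Hoxb9. The HOX genes detected after 4OHT numbered 4 with over 3 counts asked in at least 2 libraries and 1 with at least 10 counts in every library, against 2, and those detected untreated numbered 5 with at least 10 counts, against 8. Few counts and gene overlap both limit these values: the HOX genes beside Hoxc13, Hoxc12, Hoxc5 and Hoxb9 fell short of the count minimum, and 8 of those lie wholly within other genes and could not be measured.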
